A study of Homo sapiens with 6 samples.

Results

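DNA methylation in mammalian cells is copied at each replication and can be taken off again by oxidation, and 8 genes that encode the central proteins of these steps were followed on the arrays. They were taken by gene symbol: the paralogues UHRF1 and UHRF2, the methyltransferases DNMT1, DNMT3A and DNMT3B, and the dioxygenases TET1, TET2 and TET3. Each symbol matched exactly 1 of the 67528 transcript clusters of the deposited matrix (a transcript cluster is the array's set of probes for 1 gene or transcript), and all 8 were among the 32540 clusters bright enough to be tested. The genes were chosen by name, with clusters selected on the mean signal over all arrays. The rule of keeping the brightest cluster of a gene, by its mean over the 6 arrays, therefore never had to choose between clusters. The genes were picked with the result for UHRF1 already known, so its p-value is a description and not independent evidence.

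The cells were A549, an established human lung adenocarcinoma line. In the knockdown group (CONCR siRNA, 3 arrays) they received a combination of siRNAs against CONCR, a long noncoding RNA whose gene symbol is DDX11-AS1, and in the comparison group (control siRNA, 3 arrays) a control siRNA. Both groups were grown with 10% fetal calf serum and given 40 nM siRNA in a pair of transfections 24 h apart, with 300 ng of total RNA going into the cDNA of each array. Both groups are of a single cell line, and no arm with each siRNA alone was used here. The knockdowns are described as independent, but separate cultures are not stated, and p-values therefore cover the spread between these 6 samples, part of which may be technical.

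UHRF1 recognises DNA in which only the parental strand carries methyl groups and, by ubiquitinating histone H3, brings DNMT1 to freshly replicated sites, where DNMT1 copies the mark to the daughter strand. DNMT3A and DNMT3B write methylation at sites that lacked it. The TET enzymes use iron and 2-oxoglutarate to oxidise 5-methylcytosine, after which the glycosylase TDG and base excision repair can restore an unmodified cytosine. UHRF1 is a gene of proliferating cells with its peak around S phase, and E2F factors are known to drive it, whereas UHRF2, its closest relative, is not able to replace it in maintenance methylation.

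The upstream DNA of UHRF1, UHRF2 and DNMT1 is shown because UHRF1 differed from the other 7 genes in its letters there. The sequences are the 250 bases before an annotated start in the RefSeq promoter table (build GRCh38.p14), 5′ to 3′ on the gene's own strand, with capitals marking an E2F motif. The UHRF1 window lies at chr19:4909251-4909500 on the plus strand, that of UHRF2 at chr9:6412949-6413198 on the plus strand and that of DNMT1 at chr19:10194954-10195203 on the minus strand.
UHRF1: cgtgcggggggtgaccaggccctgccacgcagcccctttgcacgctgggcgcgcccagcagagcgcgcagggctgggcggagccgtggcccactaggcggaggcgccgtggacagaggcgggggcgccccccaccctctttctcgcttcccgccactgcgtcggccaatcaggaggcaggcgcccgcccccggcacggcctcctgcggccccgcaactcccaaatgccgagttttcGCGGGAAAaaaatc
UHRF2: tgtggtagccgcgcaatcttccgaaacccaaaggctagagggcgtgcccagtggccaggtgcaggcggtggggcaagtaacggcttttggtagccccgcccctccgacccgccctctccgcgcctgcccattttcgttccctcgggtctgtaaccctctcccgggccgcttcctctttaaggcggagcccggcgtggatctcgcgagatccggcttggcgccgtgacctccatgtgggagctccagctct
DNMT1: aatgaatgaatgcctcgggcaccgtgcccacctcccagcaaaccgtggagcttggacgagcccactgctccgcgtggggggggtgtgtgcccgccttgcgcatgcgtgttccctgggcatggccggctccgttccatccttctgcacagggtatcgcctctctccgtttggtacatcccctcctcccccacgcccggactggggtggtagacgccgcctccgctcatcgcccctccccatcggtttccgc

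The motif was searched on both strands as the 4 words TTTCCCGC, TTTCGCGC, TTTGCCGC and TTTGGCGC, and no matches overlapped in UHRF1. In the UHRF1 window shown, TTTCCCGC lies on the opposite strand, from base 14 to base 7 before the start. The table lists 3 starts of UHRF1, and a second of these windows holds TTTCGCGC on the gene's strand, 160 to 153 bases before its start. None of the windows of the other 7 genes, of which DNMT3A has 6, holds any of the words. At least 1 such window was found for 928 of 27305 genes in the table (3.4%). The same held for 10 of the 25 replication fork genes with an entry, among them PCNA and MCM6. It also held for 5 of 19 maintenance partners and 2 of the 6 genes nearest to UHRF1 in profile, lists read below. None of the 10 fork genes was called, with POLA1 at -0.19, PCNA at -0.15 and MCM6 at -0.03. Of all 15497 tested genes 2.61% were called, so no call among 10 says little about the motif. CDC45, the fork gene called lower, is not among the 10. Whether the motif bears on the fall of UHRF1 was not tested. CpG dinucleotides, the substrate of these enzymes, number 28 in the UHRF1 window shown, 23 in that of UHRF2 and 21 in that of DNMT1. The median over all 35116 windows is 11. The other windows of UHRF1 hold 32 and 41, those of TET3 37 and 27, and those of TET2 10 and 34. DNMT3A windows hold 12 to 33, TET1 windows 4 to 11, and the 1 DNMT3B window in the table holds 3. Starts that the table does not list were not searched for CpGs or for the motif. These are matches of letters and say nothing of binding or methylation in A549 cells, which the arrays did not measure.

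The targeted RNA was read first. DDX11-AS1 had log2 signals of 4.23, 4.49 and 4.64 on the CONCR siRNA arrays, against 4.71, 4.71 and 4.64 on the control siRNA arrays. The groups barely stood apart, with the highest CONCR siRNA array at 4.6427 and the lowest control siRNA array at 4.6434. Of all tested clusters, 19.1% did not overlap. The difference of -0.23 (SE 0.10) missed the threshold (adjusted p = 0.42 by limma) and so does not check the labels. It was -0.12 without CONCR siRNA replicate 1, and the signal was near the filter of 4. Arrays correlated across tested clusters at 0.989 to 0.993 within a group and at 0.987 to 0.991 between groups. Over all tested clusters, 1.88% (613 of 32540) passed an adjusted p of 0.05, with 1.5% lower and 0.384% higher.

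UHRF1 was lower after CONCR siRNA, and the other 7 genes did not pass the test. Of the 8 genes, 1 fell and 0 rose by limma at an adjusted p of 0.05, against 2.61% called over the 15497 genes with a cluster of their own (2.01% lower and 0.6% higher). At an unadjusted p under 0.05 TET3 would join UHRF1, in the other direction. The median log2 difference of the 8 was -0.02, against 0.01 over all tested genes.

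UHRF1 had RMA log2 signals of 7.22, 7.30 and 7.24 on the CONCR siRNA arrays, against 7.74, 7.67 and 7.65 on the control siRNA arrays. Every CONCR siRNA array lay below every control siRNA array, and the gap between the groups was several times the spread within either. The means were 7.25 ± 0.04 on CONCR siRNA arrays and 7.69 ± 0.05 on control siRNA arrays (SD, n = 3 each), a log2 difference of -0.43 (SE 0.05, 95% confidence interval -0.56 to -0.30, limma adjusted p = 0.015). On the linear scale the signal was 1.35-fold lower with CONCR siRNA. In bulk RNA, fewer cells that express a gene and less of its RNA per cell cannot be told apart. The size of the difference lay at percentile 98.1 of all tested clusters, and its p ranked 218 of 32540. Leaving out any 1 array kept the difference between -0.46 and -0.41, but the call remained only without control siRNA replicate 1 (adjusted p = 0.040), and was lost without each of the other 5 arrays, at 0.059 to 0.079. It was also just missed when dim clusters were kept in the adjustment (adjusted p = 0.054). With the replicate number added to the fit as a block, it was lost (limma adjusted p = 0.14).

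**Figure D1:**
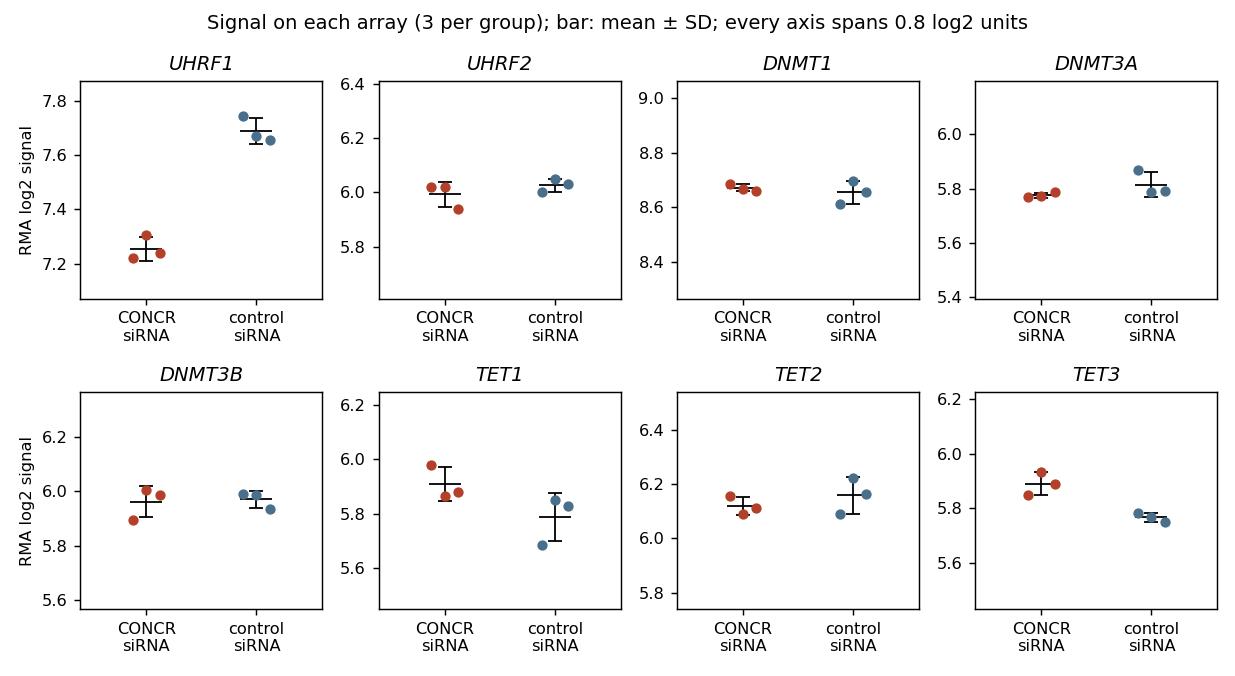
RMA log2 signal of the 8 genes on each array (points), with CONCR siRNA left and control siRNA right, and the mean ± SD of 3 arrays per group. Every panel spans the same range, so that the gap for UHRF1 (7.25 against 7.69) can be set beside the near-level groups of DNMT1 (8.67 against 8.66).

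UHRF2, the paralogue of UHRF1 with the same domain order, had log2 signals of 6.019, 6.018 and 5.939 on the CONCR siRNA arrays, against 5.9997, 6.048 and 6.031 on the control siRNA arrays. The groups overlapped, with a difference of -0.03 (SE 0.05, interval -0.16 to 0.09 at 95% confidence, limma adjusted p = 0.87). The log2 ratio of UHRF1 to UHRF2 signals, taken within each array, was 1.26 ± 0.05 on CONCR siRNA arrays and 1.66 ± 0.07 on control siRNA arrays (SD, n = 3 each). These ratios did not overlap between groups and differed by -0.40 (SE 0.05, two-sided exact permutation p = 0.1, the smallest that 3 arrays against 3 allow). Ratios were compared for 6 pairs of the genes, and the adjusted value for this pair was 0.2 over the 6 exact tests. As UHRF2 differed by only -0.03, this ratio mostly repeats the fall of UHRF1 and adds no separate evidence for it. Probe sequences were not used here, so cross-hybridisation between the paralogues was not tested.

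DNMT1, the maintenance methyltransferase that UHRF1 brings to replicated DNA, had the smallest spread within groups of the 8 genes (residual SD 0.031). Its log2 signals were 8.69, 8.67 and 8.66 on the CONCR siRNA arrays, against 8.61, 8.70 and 8.66 on the control siRNA arrays. The CONCR siRNA arrays all fell inside the range of the control siRNA arrays. The difference was 0.02 (SE 0.05, limma adjusted p = 0.94), and its 95% confidence interval of -0.10 to 0.13 leaves out a fall of the size seen for UHRF1. Its sign turned when control siRNA replicate 1 was left out. The within-array log2 ratio of UHRF1 to DNMT1 differed by -0.45 (SE 0.06) between CONCR siRNA and control siRNA. The groups did not overlap (exact permutation p = 0.1, adjusted 0.2 over 6 pairs). With DNMT1 itself at 0.02, this ratio too mostly repeats the fall of UHRF1.

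The de novo methyltransferases did not differ beyond their spread. DNMT3A had log2 signals of 5.77, 5.77 and 5.79 on the CONCR siRNA arrays, against 5.87, 5.79 and 5.79 on the control siRNA arrays. The 2 sets of arrays stood apart, by a margin far smaller than the spread within the control group, and the log2 difference came to -0.04 (SE 0.05, 95% confidence interval -0.16 to 0.08, limma adjusted p = 0.84). DNMT3B had log2 signals of 5.895, 6.004 and 5.984 on the CONCR siRNA arrays, against 5.989, 5.987 and 5.932 on the control siRNA arrays. The groups overlapped, and the log2 difference came to -0.01 (SE 0.05, 95% confidence interval -0.14 to 0.12, limma adjusted p = 0.97), with a sign that turned without CONCR siRNA replicate 1 or control siRNA replicate 1. The ratio of DNMT3A to DNMT3B differed by -0.03 between groups (SE 0.04, exact permutation p = 0.5).

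Among the demethylating enzymes, TET1 and TET3 had higher values with CONCR siRNA that did not pass the test. TET1 had log2 signals of 5.98, 5.86 and 5.88 on the CONCR siRNA arrays, against 5.69, 5.85 and 5.83 on the control siRNA arrays. The groups did not overlap, though 2 of the control siRNA arrays lay close below the CONCR siRNA arrays, and the log2 difference came to 0.12 (SE 0.07, 95% confidence interval -0.04 to 0.28, limma adjusted p = 0.55). TET3 had log2 signals of 5.85, 5.93 and 5.89 on the CONCR siRNA arrays, against 5.78, 5.77 and 5.75 on the control siRNA arrays. All CONCR siRNA arrays lay above all control siRNA arrays, with a difference of 0.12 (SE 0.05, 95% confidence interval 0.01 to 0.24, limma adjusted p = 0.37). TET2, the family member without a DNA-binding CXXC domain of its own, had log2 signals of 6.16, 6.09 and 6.11 on the CONCR siRNA arrays, against 6.09, 6.22 and 6.16 on the control siRNA arrays. Its groups overlapped, with a difference of -0.04 (SE 0.06, 95% confidence interval -0.17 to 0.10, limma adjusted p = 0.86).

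Ratios within the TET family were compared in the same way. The log2 ratio of TET1 to TET2 was -0.21 ± 0.03 on CONCR siRNA arrays and -0.37 ± 0.03 on control siRNA arrays (SD, n = 3 each), and did not overlap between groups. That difference of 0.16 (SE 0.03) had an exact permutation p = 0.1, adjusted 0.2 over the 6 pairs. The ratio of TET2 to TET3 differed by -0.16 (SE 0.06, exact permutation p = 0.2), and that of TET1 to TET3 by less than 0.01 in size (exact permutation p = 1). In all, groups did not overlap for 4 of the 8 genes, UHRF1 and DNMT3A lower and TET1 and TET3 higher. Of all 15497 tested genes, 1979 lower and 1809 higher did not overlap. Over all tested clusters, with or without a symbol, the share was 19.1% (10.1% lower and 9% higher).

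**Figure D2:**
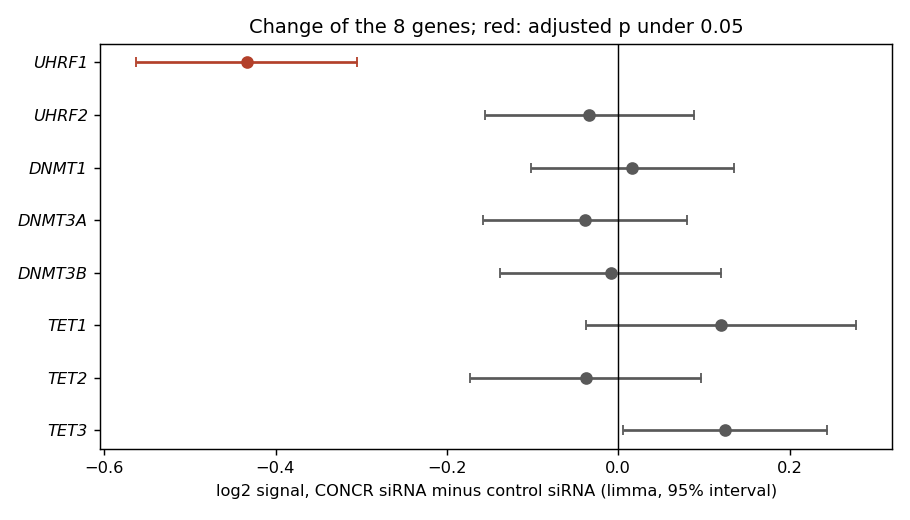
Log2 difference of the 8 genes, CONCR siRNA minus control siRNA, with 95% confidence intervals from the limma fit over all tested clusters. The interval of UHRF1 (-0.56 to -0.30) lies apart from all the others, and that of TET3 (0.01 to 0.24) is the other one that leaves out 0.

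The 6 genes whose profile over the 6 arrays was nearest to that of UHRF1 were found by the root-mean-square difference after each gene was centred on its own mean, among 15496 genes. They were DPYSL5, a collapsin response mediator (difference 0.025), TBCD, a tubulin folding cofactor (0.033), MINK1, a kinase (0.037), DCP1A, of mRNA decapping (0.040), KATNAL1, a katanin-like protein (0.041), and ZBED4, a zinc finger protein (0.046). All 6 were lower with CONCR siRNA, by log2 differences of -0.46 to -0.37, which follows from how they were found. None of them is a DNA methylation gene of the lists. DNMT1, the partner of UHRF1, was at a difference of 0.23, at rank 7508. UHRF2, DNMT3B and TET2 were at 0.21 each. A gene with level groups lies far from UHRF1 by this measure, so the rank adds nothing to the test of DNMT1.

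**Figure D3:**
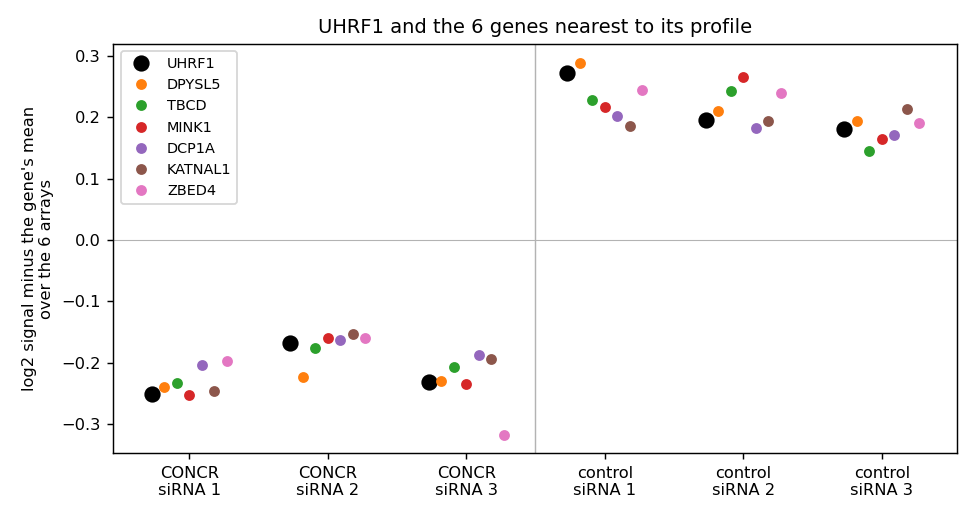
Log2 signal of UHRF1 (black) and of its 6 nearest genes on each array, each minus its own mean over the 6 arrays, with the CONCR siRNA arrays left and the control siRNA arrays right. All points with CONCR siRNA lie below 0 and all with control siRNA lie above 0.

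Proteins that work beside UHRF1 and DNMT1 at replicated and condensed chromatin were read from a list of 20, of which 18 were tested. None passed by limma over all clusters, 13 had a negative sign and the median log2 difference was -0.05. Over all tested genes, 2.61% were called and 45.1% were negative. Some of the partners, PCNA among them, are also in the list of fork genes read next. CDCA7, which activates the remodeller HELLS in maintenance methylation, had log2 signals of 7.34, 7.22 and 7.29 on the CONCR siRNA arrays, against 7.46, 7.51 and 7.55 on the control siRNA arrays. The groups did not overlap, and the difference was -0.22 (SE 0.06, limma adjusted p = 0.14). PCLAF, a PCNA-binding protein that can recruit DNMT1 when ubiquitinated, was at -0.18 (limma adjusted p = 0.34), the sliding clamp PCNA at -0.15 (0.31) and the deacetylase HDAC1 at -0.14 (0.33).

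Genes of the replication fork, which like UHRF1 are known as S-phase genes, were read beside it. Of 28 tested, CDC45, part of the replicative helicase, fell by 0.64 on the log2 scale (SE 0.07, limma adjusted p = 0.0099), and 27 did not pass. Over all tested genes, 2.01% were called lower. CDC45 had log2 signals of 6.10, 5.95 and 6.03 on the CONCR siRNA arrays, against 6.70, 6.74 and 6.56 on the control siRNA arrays, and it is the 1 gene of that list with a larger fall than UHRF1. The call of CDC45 was lost without CONCR siRNA replicate 2 or 3 or control siRNA replicate 2, at 0.052 to 0.061. The flap endonuclease FEN1 was at -0.19 (limma adjusted p = 0.18), the polymerase subunit POLA1 at -0.19 (0.25), and the list median was -0.03 with 24 of 28 signs negative, against 45.1% negative over all tested genes.

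Factors that steer new methylation through histone marks or silencing complexes gave no calls by limma among 13 tested, with 9 positive signs and a median of 0.03. Of all 15497 tested genes, 2.61% were called and 8510 had a positive sign. ATF7IP, the partner of the H3K9 methyltransferase SETDB1, was at 0.14 (limma adjusted p = 0.44). The H3K36 methyltransferases NSD1, NSD2 and NSD3, whose mark guides DNMT3 enzymes, were at -0.10, -0.11 and -0.12, with limma adjusted p of 0.50 to 0.55.

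Of 18 tested genes of active removal, 1 rose, against 0.6% called higher over all tested genes. GADD45A, a stress-induced protein implicated in DNA demethylation, had log2 signals of 7.57, 7.55 and 7.54 on the CONCR siRNA arrays, against 7.08, 7.21 and 7.08 on the control siRNA arrays. All CONCR siRNA arrays were higher, with a difference of 0.43 (SE 0.06, limma adjusted p = 0.018). It remained called only without control siRNA replicate 2 (adjusted p = 0.049), with values of 0.053 to 0.092 without each of the other 5 arrays. TDG, the glycosylase that removes oxidised methylcytosine, was at 0.14 (limma adjusted p = 0.31), the repair scaffold XRCC1 at 0.13 (0.33) and PARP1, which binds the strand breaks, at -0.13 (0.30). The list median was 0.03.

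Among 9 tested genes of the MBD and ZBTB families, which include the readers of methylated DNA, 1 fell, against 2.01% of all tested genes. That gene, MBD5, carries an MBD-type domain but is not known to bind methylated DNA, as is also the case for MBD6. MBD5 had log2 signals of 4.40, 4.35 and 4.40 on the CONCR siRNA arrays, against 4.85, 5.00 and 5.07 on the control siRNA arrays. The groups did not overlap, and the difference of -0.59 (SE 0.07, limma adjusted p = 0.012) was larger than that of UHRF1, at a signal near the filter of 4. MBD5 remained called only without control siRNA replicate 1 (adjusted p = 0.015), with 0.051 to 0.073 without each of the other 5 arrays. ZBTB4, a zinc finger protein that binds methylated DNA, was at -0.26 (limma adjusted p = 0.086), MBD2, of the NuRD complex, at -0.13 (0.40) and ZBTB38 at 0.10 (0.55).

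**Figure D4:**
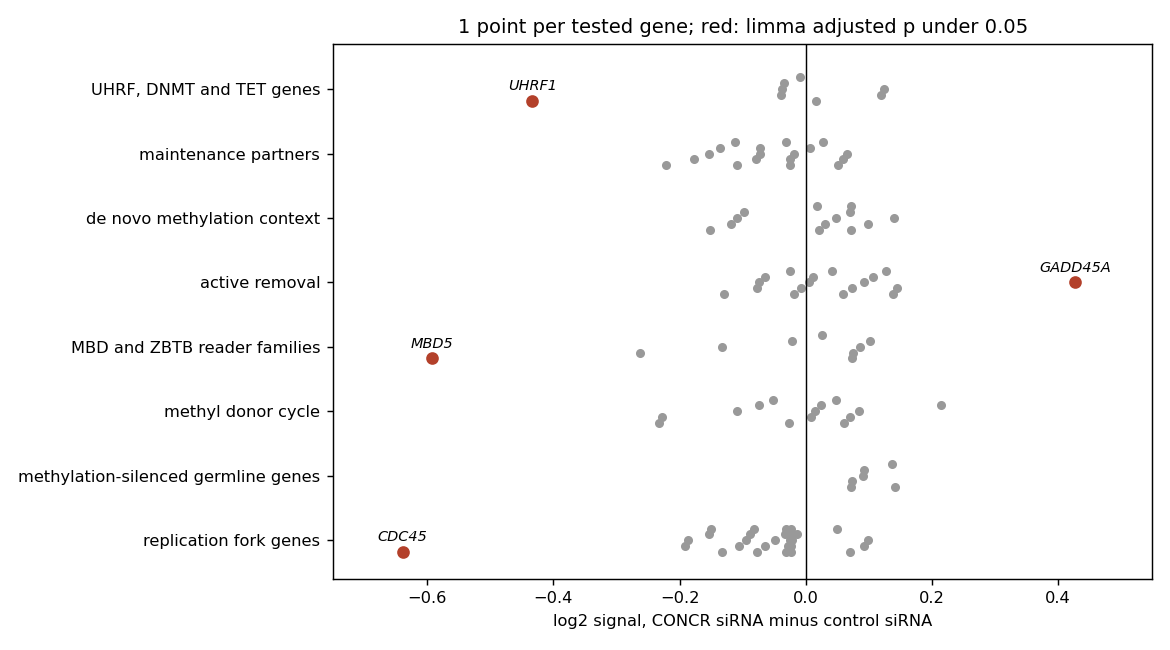
Log2 difference of each tested gene, CONCR siRNA minus control siRNA, in 8 gene lists (1 row each), with genes at a limma adjusted p under 0.05 in red. UHRF1, MBD5 and CDC45 stand to the left at -0.43, -0.59 and -0.64, GADD45A to the right at 0.43, and all other points lie between -0.26 and 0.22.

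The methyl donor cycle, which supplies S-adenosylmethionine and clears its product, gave no calls by limma among 14 tested genes (median 0.01). Of all 15497 tested genes 2.61% were called, so no call among 14 says little about the cycle. Groups did not overlap for 5 of the 14 genes lower and 4 higher, against 1979 lower and 1809 higher of all tested genes. Adenosine kinase, ADK, was at -0.23 (SE 0.05, limma adjusted p = 0.11) and AHCYL2, a relative of the S-adenosylhomocysteine hydrolase, at -0.23 (0.15), while MTAP, at 0.22 (0.28), had signals near the filter. AHCYL1 was at -0.11 (0.45).

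Germline and cancer-testis genes, which promoter methylation keeps silent in most somatic cells, were read as a list of 24 with 20 on the array. Of these, 14 had too low a signal to be tested, among them DAZL, DDX4 and SYCP3. The 6 tested genes did not pass by limma, and their groups overlapped in every case, with differences of 0.07 to 0.14. Of all 15497 tested genes 2.61% were called, and groups did not overlap for 1979 lower and 1809 higher. With only 6 genes tested, these counts do not show that silenced genes failed to respond. MAGEA4 had log2 signals of 4.88, 4.97 and 5.00 on the CONCR siRNA arrays, against 4.92, 4.74 and 4.76 on the control siRNA arrays (difference 0.14, limma adjusted p = 0.47). MAGEC2 was at 0.14 (0.56), MAGEB2 at 0.09 (0.76) and MAGEA3 at 0.07 (0.71). MAGEC2 and MAGEB2 had signals near the filter of 4, and were over it on 4 and 3 of the 6 arrays. MAGEC2 passed mainly through its CONCR siRNA arrays, with control siRNA signals of 4.13, 3.89 and 3.97. The differences of MAGEC2 and MAGEB2 are therefore tied to the filter, and no conclusion is drawn from them.

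The label of the line was set against markers. Of 8 markers of A549 epithelium, 7 passed the filter, with KRT8, KRT18, ALDH1A1 and AKR1B10 at mean log2 signals of 11.3 to 12.4, while EPCAM was below it at 2.78. The summed linear signal of those markers was 14391 to 15420 with CONCR siRNA and 15143 to 15794 with control siRNA. KRT8 was at 0.07, AKR1C1 at -0.22, CDH1 at -0.22 and AKR1B10 at -0.19, none past the test. Summed signals of markers of other cell types differed between the groups, with 6 fibroblast markers at 273 to 286 with CONCR siRNA against 226 to 235 with control siRNA, 5 leukocyte markers at 490 to 501 against 341 to 372, and 6 endothelial markers at 220 to 229 against 184 to 200. Each of these gaps rests on 1 gene that was called higher, PDGFRA at 0.51, CD68 at 0.50 and ESAM at 0.41 (limma adjusted p of 0.0088, 0.012 and 0.030). Without that gene, a sum added after the data were seen, the fibroblast markers were at 103 to 110 with CONCR siRNA against 102 to 112 with control siRNA, the leukocyte markers at 38.5 to 40.3 against 37.0 to 40.8, and the endothelial markers at 108 to 109 against 100.1 to 112. The call of ESAM was lost whichever array was left out, that of CD68 without 4 of the 6 arrays and that of PDGFRA without CONCR siRNA replicate 2 or control siRNA replicate 2 (adjusted p of at most 0.14 over these 3 genes). The other tested markers did not pass (COL1A1 -0.02, COL1A2 0.02, PDGFRB 0.00, CDH5 0.09, CLDN5 0.09 and VWF 0.02), and the defining genes PTPRC, DCN, LUM, PECAM1 and KDR were below the filter in both groups. The part of PDGFRA, CD68 and ESAM, or of cells that carry them, in the results for UHRF1, MBD5 and GADD45A was not tested.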

How the data were processed

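The deposited values are log2 signals from Affymetrix whole-transcript arrays, made by the authors with RMA (background correction, quantile normalization and a summary over probes) in Affymetrix Power Tools, per the submitters' processing notes. The version and the genome build are not given in the sources used here. Quantile normalization hides changes in total RNA per cell. Arrays have no read depth, and their number limits the precision.

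Of 70523 probe sets, 2995 whose identifiers are not of the transcript cluster form were left out. A cluster was tested when its log2 signal was over 4 on at least 3 of the 6 arrays. Symbols came from the platform annotation and, by Entrez identifier, the RefSeq list of GRCh38.p14. Of the tested clusters, 16368 had 1 symbol, 1131 several and 15041 none.

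The groups were set against each other in R 4.3.3 with limma 3.58.1 (lmFit and eBayes, two-sided, Benjamini-Hochberg over all tested clusters), giving 6.91 degrees of freedom. Log2 differences are CONCR siRNA minus control siRNA. Ratios of gene pairs were compared by an exact permutation test over arrays. The fit was tested on simulated data, where it called most large changes but missed many small ones, so a gene that did not pass is not shown to be unchanged. Members and lists were chosen with earlier results of these data known. Besides the 8 genes and DDX11-AS1, the rule named, in each list, called genes and up to 4 genes with the smallest p, and the 6 profiles nearest to UHRF1. Genes named for lying below the filter or as motif examples, and KRT18 and ALDH1A1, were named after their values were seen. RefSeq promoters matched all 8 genes.

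The settings tried besides were a filter at 6 or none, quantile normalization, array weights, median centring, trend and robust options of eBayes, a replicate block and leaving out each array. Averaging clusters of a gene gave nothing new, since each of the 8 has 1 cluster.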

Additional observations from a re-analysis of the deposited data

How the results depend on the processing

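UHRF1 stayed lower under all 13 alternatives, at -0.46 to -0.41, and stayed called under 6 of them. It was no longer called without a filter (-0.43, adjusted p = 0.054) and with the replicate block (-0.43, adjusted p = 0.14). Of the 6 fits without 1 array, only 1 kept the call, and the highest adjusted p was 0.079. UHRF2, DNMT1, DNMT3A, DNMT3B, TET1, TET2 and TET3 were called under none of the alternatives that gave a value, and a filter at 6 left DNMT3A, DNMT3B, TET1, TET3 and DDX11-AS1 untested. The 613 calls (125 higher, 488 lower) became 51 (4 and 47) with the replicate block, 238 (36 and 202) without a filter, 1102 (342 and 760) with a filter at 6, and 965 (252 higher) with trend and robust estimation. Calls higher were 213 after quantile normalization and 81 after median centring. Without 1 array there were 129 to 411 calls, 11 to 56 higher and 109 to 355 lower. With the replicate block every list, those of removal, MBD and ZBTB, fork genes and other cell types included, held 0 calls. Deviations of same-numbered arrays correlated at -0.27, -0.16 and -0.08. With so few arrays per group, these values cannot decide whether the numbers mark pairs. The result with the replicate block is therefore not set aside. Without a filter the lists of removal and endothelium held 0. With a filter at 6, CDCA7, ADK, AKR1C1 and, beside CDC45, FEN1 were called lower, giving 1, 1, 1 and 2 in their lists. ZBTB4 replaced MBD5, which was not tested there. With trend and robust estimation ZBTB4 made 2 lower calls in the MBD and ZBTB list, and ADK 1 in the donor cycle. Leaving out 1 array gave 0 to 1 calls in each list that held a call, and 0 every time in the endothelial one. The gene pairs were recomputed only without each array. The difference of UHRF1 to UHRF2 was -0.42 to -0.36 and that of UHRF1 to DNMT1 -0.48 to -0.40, both carried mostly by UHRF1. The causes were not tested.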
